A study of Mus musculus with 8 samples.

Results

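The heat shock proteins and their co-chaperones were compared between young and old mouse hippocampus. The rule for members used gene symbols and no measured value. It took the genes named Hspa, Hspb, Hspd, Hspe or Hsph with a number, Hsp90, Dnaja, Dnajb or Dnajc with a number, and Bag1 to Bag6. They comprised 76 genes measured by 104 probes, of 19751 genes with a named probe and 39429 probes in all. By symbol they fell into 13 genes of the Hsp70 and Hsp110 group, 3 of Hsp90, 8 small heat shock proteins, 2 chaperonin genes, 44 J domain genes (4 of class A, 12 of class B and 28 of class C) and 6 Bag genes. The samples were hippocampi dissected by hand from wild type C57BL/6J mice that received no treatment. The paper states that its oldest mice were bought when already aged and then kept in its own holding rooms. One group was 3 months old (3M, n = 4) and the other 29 months old (29M, n = 4), and each sample had 1 single-colour Agilent array. The labels do not say whether the 4 samples of a group were 4 mice, so p-values measure only the spread between these samples, which may be technical. In bulk tissue, fewer cells of a type and less RNA per cell cannot be told apart.

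Chaperones bind unfolded stretches of other proteins and keep them from aggregating while they fold. Hsp70 proteins work through a cycle of ATP hydrolysis in which J domain proteins deliver the client and start hydrolysis, and Hsp110 and Bag proteins release the nucleotide. Hsp90 matures kinases and steroid receptors, the chaperonin encloses proteins imported into mitochondria, and small heat shock proteins hold unfolded proteins without ATP. Neurons do not divide and so cannot dilute damaged proteins, which is why this network is often studied in the ageing brain.

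The 8 arrays were alike (r between 0.991 and 0.998 over all 28 pairs of arrays, within and between the ages). Between 76.2% and 85.0% of spots lay well above background. Replicate 1 of 3M had the lowest of these shares. The 8 arrays lay on 3 slides, each of which held both ages. Of 76 members, 72 had a probe well above background on all arrays of at least 1 group, and the exceptions were Dnajb7, Dnajb11, Dnajc5g and Dnajc22. The neuronal markers Snap25 and Neurod6, used to check the tissue, were well above background on every array.

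Most members differed little between the ages. With limma, at an adjusted p under 0.1 and a log2 change of at least 0.5, 0 of 76 genes were called higher in 29M, where 1.84% of all 19742 genes tested were called higher. One gene, Hspa4, was called lower (1 of 76, 1.32%), where 0.892% of all genes were called lower and 2.73% in either direction. Its 2 called probes were the only ones among the 104 of the members, while 2.06% of all 39408 probes tested were called. At an unadjusted p under 0.05 the brightest probe of 7 members had a higher value and that of 4 a lower value in 29M (11 of 76), while 9.44% of all genes passed that limit with a higher and 7.65% with a lower value (17.1% in all). At an adjusted p under 0.1 without regard to size, Bag3 and Hspb2 were higher and Dnajb3 was lower on this probe (3 of 76), as were 2.42% and 1.35% of all genes (3.77% in all). None of the 3 kept this in every one of 17 other fits, where the limma adjusted p ran from 0.0268 to 0.146 for Bag3, from 0.0478 to 0.198 for Hspb2 and from 0.0277 to 0.120 for Dnajb3. With slide as a fixed block it was 0.0937 for Bag3, 0.137 for Hspb2 and 0.0814 for Dnajb3. Here and below a gene without further mention is given by its probe with the highest mean.

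The median log2 change of the 76 genes was 0.00, and that of all genes tested was 0.01. Of the members, 39 had a higher and 37 a lower value in 29M. A change under 0.25 on the log2 scale was measured for 59 members (77.6%), as for 78.1% of all genes. For 54 members (71.1%) the whole 95% interval of the log2 change lay within 0.5 of 0, as for 68.9% of all genes. The groups did not overlap for 8 members (10.5%), 4 higher and 4 lower in 29M, as against 6.34% higher and 5.21% lower (11.6% in all) of all genes. These shares are close to the background in each case.

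**Figure D1:**
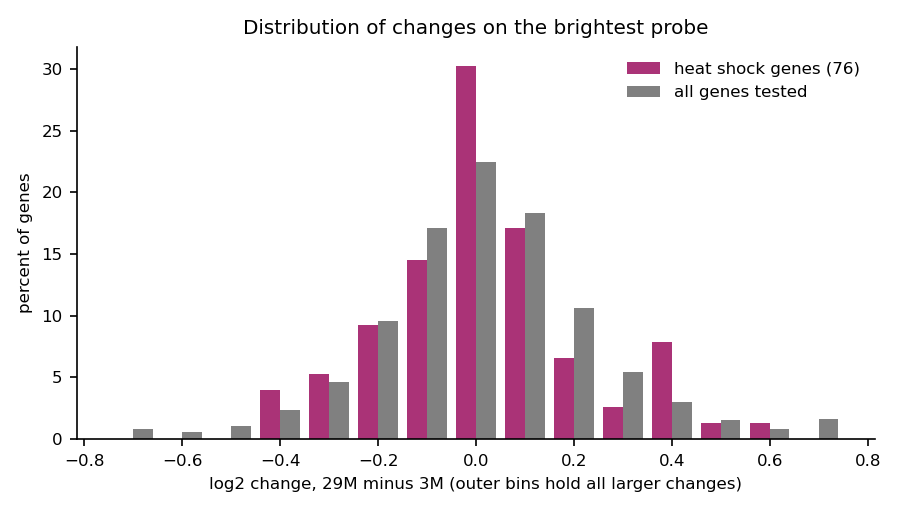
Percent of genes (vertical axis) by log2 change of 29M minus 3M (horizontal axis, bins of 0.1) for the 76 heat shock genes and for all 19742 genes tested, each by its brightest probe. The 2 distributions share their centre, and no heat shock gene lies beyond -0.44 or 0.65 on this probe.

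**Figure D2:**
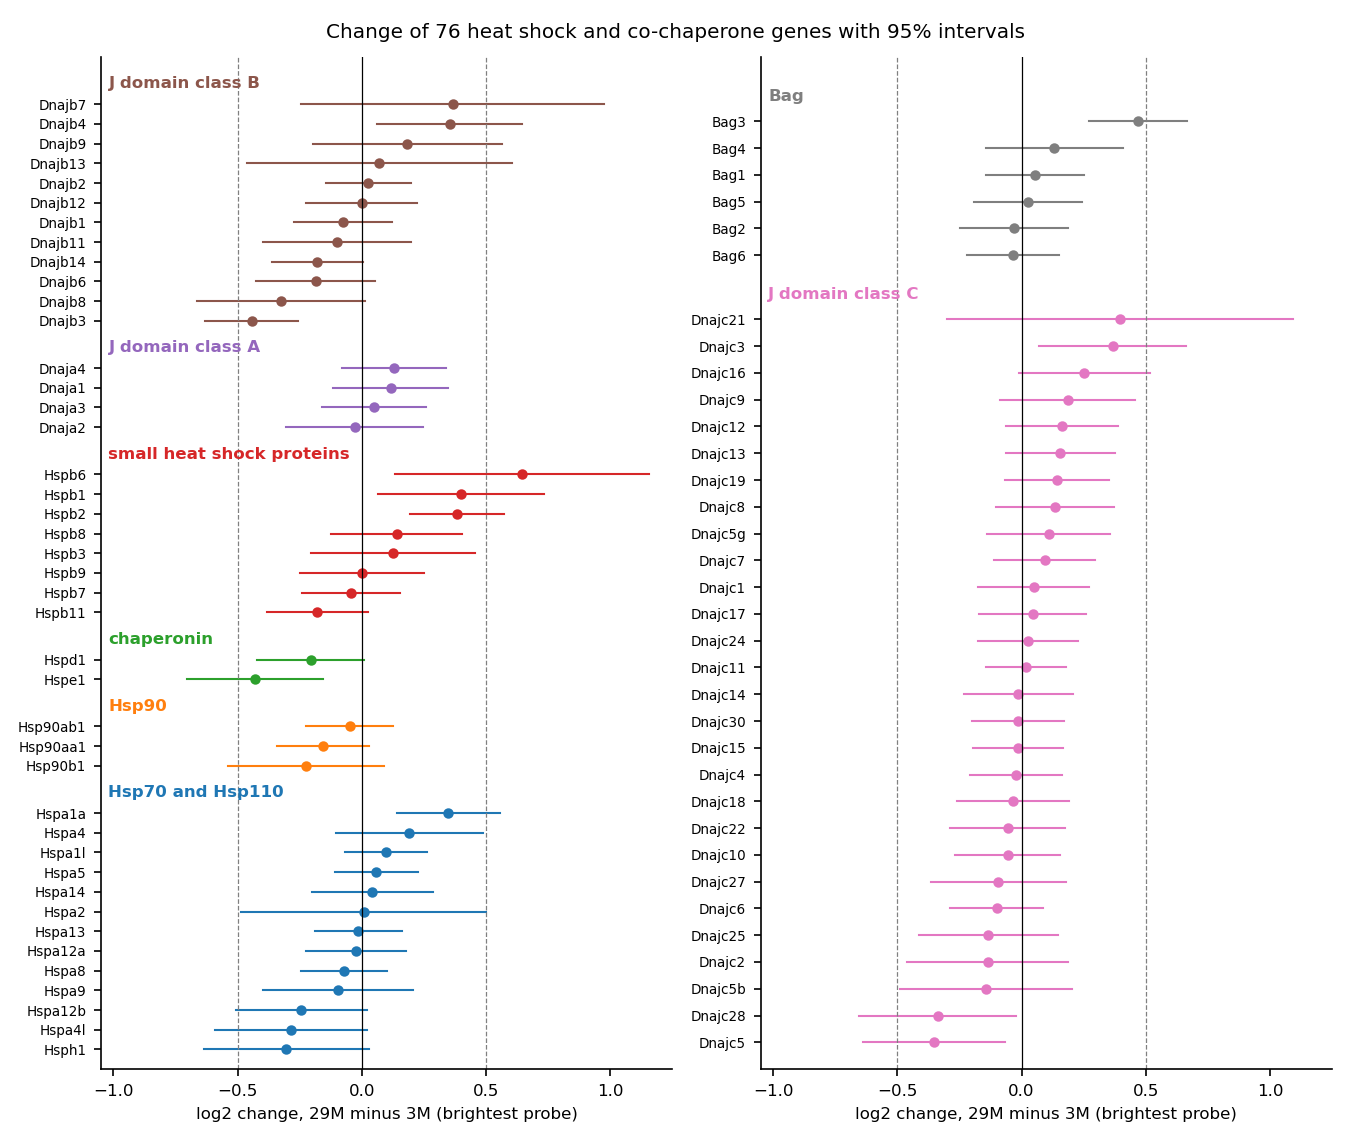
Log2 change of 29M minus 3M (horizontal axis) of the brightest probe of each of the 76 genes, by family, with the point at the estimate and the bar spanning its 95% interval from limma. Dashed lines mark 0.5 in each direction, and only Hspb6 has an estimate past either of them, with an interval that reaches from 0.14 to 1.16.

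Hspa4, an Hsp110-type nucleotide exchange factor of Hsp70, was the one member with a call, and its 3 probes did not move together. The probe A_51_P200477 read 14.16, 13.97, 13.95 and 13.91 in replicates 1 to 4 of 3M and 13.12, 12.86, 13.10 and 12.55 in 29M, in normalized log2 intensity. Its groups lay apart by more than their spread, with a log2 change of -1.09 (standard error 0.13, adjusted p from limma 0.00684), so that the level in 3M was 2.13-fold that in 29M.

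The probe A_55_P2061025 read 12.82, 11.20, 10.85 and 11.49 in 3M and 9.23, 8.72, 9.59 and 8.37 in 29M. These groups also did not overlap, although replicate 1 of 3M stood above the other 3M arrays, and the log2 change was -2.62 (standard error 0.41, adjusted p from limma 0.0199). Without that array it was -2.20 (limma adjusted p = 0.00572). The brightest probe, A_55_P2054157, read 14.28, 14.02, 13.85 and 14.05 in 3M and 14.04, 14.11, 14.28 and 14.54 in 29M. Here the groups overlapped, with a log2 change of 0.19 (95% interval -0.10 to 0.49, limma adjusted p = 0.505).

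All 3 probes carry the same transcript accession and were well above background on all 8 arrays. The per-array difference between A_51_P200477 and the brightest probe was 1.28 lower on the log2 scale in 29M than in 3M, and that of A_55_P2061025 was 2.81 lower. These differences are a description, since the gene was singled out for its unlike probes. The log2 changes within the 3 slides were -1.34, -1.11 and -0.81 for A_51_P200477 and -3.85, -2.48 and -1.94 for A_55_P2061025. With slide as a fixed block they were -1.08 (limma adjusted p = 0.0363) and -2.78 (limma adjusted p = 0.0399). Hspa4 had a fall at 2 of its 3 probes and no call at the third, and where in the transcript each probe lies was not analysed here.

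**Figure D3:**
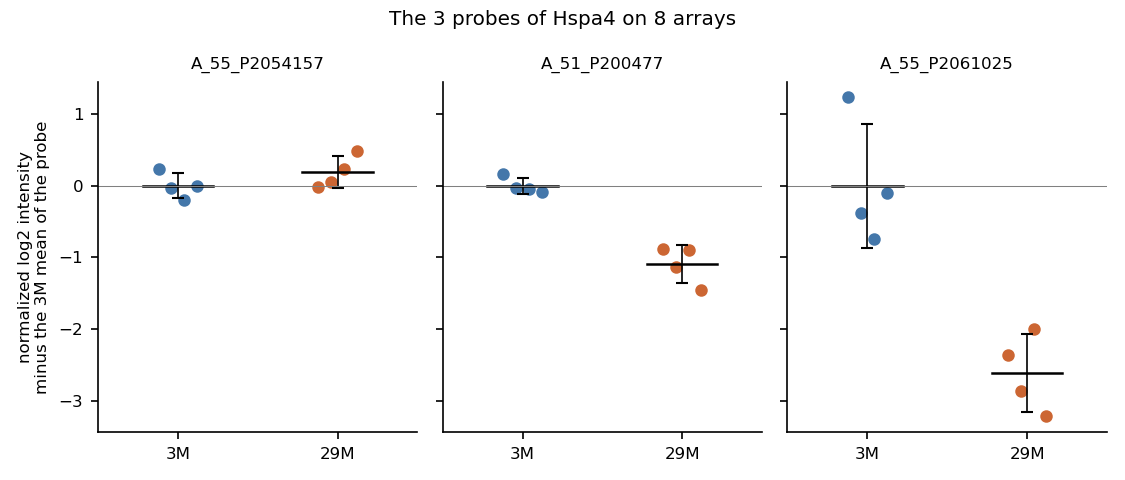
Normalized log2 intensity of the 3 Hspa4 probes, each minus its own 3M mean (vertical axis), with 1 point per array, a line at the group mean and a bar of 1 SD (n = 4). The 29M points of A_51_P200477 and A_55_P2061025 all lie below the 3M points, with mean changes of -1.09 and -2.62, and those of A_55_P2054157 overlap with 3M.

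The heat-inducible members are under the heat shock factor Hsf1, which binds inverted repeats of the letters GAA. Of 13 genes set as heat-inducible, 12 had a matched probe, since Hspa1b had none. The set also held Hspa8 and Hsp90ab1, which are given below as constitutive. Of the 12, 5 had a higher and 7 a lower value in 29M, with a median log2 change of -0.06. With limma 0 were called, where 2.73% of all genes were. At an unadjusted p under 0.05, 3 were higher and 1 lower, where 9.44% and 7.65% of all genes were. This group thus held both the higher and the lower values rather than 1 direction.

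Promoters of 300 bases (250 before and 50 after the start, RefSeq, GRCm38.p6) were listed for 61 of the 76 members. The repeat GAANNTTC, searched on both strands, occurred in the promoters of 14 members (23%) and in those of 9.04% of all 27025 genes with a listed promoter. The 14 were Bag3, Dnaja1, Dnaja4, Dnajb6, Dnajc5g, Dnajc27, Hspa1a, Hspb1, Hspb3, Hspb6, Hspb8, Hspd1, Hspe1 and Hsph1. Their log2 changes ran from -0.43 to 0.65 with a median of 0.12, beside a median of 0.01 and a range of -0.44 to 0.40 in the 47 members without the repeat. The longer form GAANNTTCNNGAA, which contains the shorter one, occurred in Dnajb6, Hspd1, Hspe1 and Hsph1 and in 0.662% of all genes. On their brightest probes these 4 had lower values in 29M, from -0.43 to -0.19, and none was called. Dnajb6 also had dimmer probes with higher values in 29M, up to 0.30. Promoters of 6 of them are shown so that the repeats can be compared between members with lower values (Hsph1, Hspe1) and with higher values in 29M (Hspa1a, Bag3, Hspb1, Hspb6), with every match to either form in capitals.
Hsph1 (chr5:149636266-149636565, minus strand): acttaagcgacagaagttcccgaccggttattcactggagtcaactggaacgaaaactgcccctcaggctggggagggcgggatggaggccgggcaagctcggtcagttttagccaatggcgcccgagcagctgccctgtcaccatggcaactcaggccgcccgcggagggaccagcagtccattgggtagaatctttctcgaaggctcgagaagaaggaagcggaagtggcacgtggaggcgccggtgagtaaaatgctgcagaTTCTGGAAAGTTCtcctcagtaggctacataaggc
Hspe1 (chr1:55087898-55088197, plus strand): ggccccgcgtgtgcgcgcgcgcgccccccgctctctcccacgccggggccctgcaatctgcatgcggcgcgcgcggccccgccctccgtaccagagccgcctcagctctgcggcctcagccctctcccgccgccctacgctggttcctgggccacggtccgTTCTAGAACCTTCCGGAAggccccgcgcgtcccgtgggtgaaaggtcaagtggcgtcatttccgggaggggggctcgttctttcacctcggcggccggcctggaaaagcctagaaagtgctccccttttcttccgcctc
Hspa1a (chr17:34972107-34972406, minus strand): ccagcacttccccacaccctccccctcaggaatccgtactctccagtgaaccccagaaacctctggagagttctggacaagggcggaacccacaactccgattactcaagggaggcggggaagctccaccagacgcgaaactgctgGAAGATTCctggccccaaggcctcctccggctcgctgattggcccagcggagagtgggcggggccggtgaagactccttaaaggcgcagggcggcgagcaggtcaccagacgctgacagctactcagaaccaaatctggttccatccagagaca
Bag3 (chr7:128523333-128523632, plus strand): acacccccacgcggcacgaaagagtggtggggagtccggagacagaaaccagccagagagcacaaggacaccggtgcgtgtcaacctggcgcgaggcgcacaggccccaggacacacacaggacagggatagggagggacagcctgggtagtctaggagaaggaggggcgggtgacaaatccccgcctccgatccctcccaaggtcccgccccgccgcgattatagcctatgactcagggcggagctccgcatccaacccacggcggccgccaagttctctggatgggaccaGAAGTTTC
Hspb1 (chr5:135887669-135887968, plus strand): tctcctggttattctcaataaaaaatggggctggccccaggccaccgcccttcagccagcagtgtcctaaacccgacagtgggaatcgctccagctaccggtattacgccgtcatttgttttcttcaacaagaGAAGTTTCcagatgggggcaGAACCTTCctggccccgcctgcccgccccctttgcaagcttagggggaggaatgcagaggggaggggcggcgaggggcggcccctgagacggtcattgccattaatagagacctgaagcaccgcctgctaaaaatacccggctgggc
Hspb6 (chr7:30553051-30553350, plus strand): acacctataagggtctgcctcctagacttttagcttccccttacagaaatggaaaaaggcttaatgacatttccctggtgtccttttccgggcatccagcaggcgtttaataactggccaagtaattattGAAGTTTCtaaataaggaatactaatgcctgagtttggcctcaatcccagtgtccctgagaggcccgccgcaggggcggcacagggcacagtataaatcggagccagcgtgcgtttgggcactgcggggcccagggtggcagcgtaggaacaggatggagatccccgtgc
The Hspe1 window shares 285 bases with 1 of the windows listed for Hspd1 on the opposite strand, so the capitals in Hspe1 are also those of Hspd1. A match describes the letters and is not evidence of binding.

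Bag3, a co-chaperone that works with Hspb8 in the selective autophagy of aggregates, read 11.95, 12.20, 12.03 and 12.11 in 3M and 12.51, 12.47, 12.67 and 12.51 in 29M. Every 29M array lay above every 3M array, with a log2 change of 0.47 (standard error 0.09, adjusted p from limma 0.0361), which is under the size threshold of 0.5. Within the 3 slides the log2 change was 0.64, 0.27 and 0.44, and without replicate 2 of 3M it was 0.51 (limma adjusted p = 0.0729), which would be a call. The other Bag genes lay close to 0: Bag4 was at 0.13, Bag1, a nucleotide exchange factor, at 0.05, Bag5 at 0.03, Bag2, an inhibitor of the ubiquitin ligase Stub1, at -0.03, and Bag6 at -0.03.

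Hspa1a, the classic stress-induced Hsp70, read 11.21, 11.21, 11.33 and 11.02 in 3M and 11.67, 11.51, 11.55 and 11.43 in 29M. Its groups did not overlap, and the log2 change was 0.35 (standard error 0.09, adjusted p from limma 0.107), past neither threshold. Since Hspa1b is a nearly identical gene, the probe of Hspa1a may also read its RNA, and the value is uncertain to that extent.

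Of the 8 genes counted as small heat shock proteins by their Hspb symbol alone, 6 had a higher value in 29M. Their median log2 change was 0.13 (0.08 to 0.16 over 17 other fits). With limma 0 were called, where 2.73% of all genes were. At an unadjusted p under 0.05, 3 were higher and 0 lower, where 9.44% and 7.65% of all genes were. No test of the list as a set was run. Hspb6, also known as Hsp20, had the greatest change on the brightest probe of all members. It read 11.90, 11.78, 11.01 and 12.25 in 3M and 12.34, 12.19, 12.43 and 12.54 in 29M. The 3M arrays were spread widely and replicate 4 of 3M reached into the 29M range, so that a log2 change of 0.65 (SE 0.23) had a limma adjusted p of 0.197. Without replicate 3 of 3M, the lowest array, the change was 0.40. That array also had the lowest mean deviation from the 8-array mean for markers of choroid plexus (-0.73, against 0.00 to 0.34 on the other 3M arrays and -0.21 to 0.15 in 29M) and of ependyma (-0.78, against 0.22 to 0.52 and -0.18 to 0.03), whose part in the values of Hspb6 was not tested.

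Hspb1, the stress-induced Hsp27 homologue, read 12.91, 13.48, 13.45 and 13.43 in 3M and 13.85, 13.77, 13.83 and 13.44 in 29M. The groups overlapped, since replicate 4 of 29M lay within the 3M range, and the log2 change was 0.40 (standard error 0.15, adjusted p from limma 0.216). Without replicate 1 of 3M, which was far below the other 3M arrays, it was 0.27. Hspb2, known from muscle as a partner of the myotonic dystrophy kinase, read 9.75, 9.82, 9.63 and 9.70 in 3M and 10.17, 10.02, 10.22 and 10.04 in 29M. Its groups did not overlap, with a log2 change of 0.38 (standard error 0.08, adjusted p from limma 0.0625), under the size threshold. Cryab, the neighbouring gene of the same protein class and not a member, had log2 changes of 0.29 and 0.32 on its 2 probes (limma adjusted p = 0.284 and 0.313). Hspb8, the partner of Bag3, was at 0.14, Hspb3 at 0.13, Hspb9 at 0.00, Hspb7 at -0.04 and Hspb11 at -0.18.

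Markers of the vessel wall were read beside these genes, since small heat shock proteins are abundant in muscle and vessels. All 5 endothelial markers had higher values in 29M (median log2 change 0.29, 0 called), and their summed level on the log2 scale ran from 15.17 to 15.54 in 3M and from 15.49 to 15.66 in 29M. Of 6 markers of smooth muscle and pericytes, 3 had a higher value, with a median of -0.01 and summed levels of 14.91 to 15.38 in 3M and 14.95 to 15.31 in 29M. All markers of both lists were well above background on all 8 arrays. The part of these cells in the values of the small heat shock proteins was not tested.

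The chaperonin genes had lower values at all 4 of their probes. Hspe1, the small cap of the mitochondrial chaperonin, read 14.83, 15.14 and 15.15 in replicates 1, 2 and 4 of 3M and 14.53, 14.50, 14.79 and 14.62 in 29M. Replicate 3 of 3M was dropped from this probe because its spot was marked as an outlier. The groups did not overlap, with a log2 change of -0.43 (standard error 0.12, adjusted p from limma 0.128). Its other probes gave -0.28 and -0.25, with overlap. Hspd1, the barrel of the same chaperonin, read 16.09, 15.83, 15.80 and 15.87 in 3M and 15.59, 15.71, 15.84 and 15.61 in 29M. Replicate 3 of 29M lay within the 3M range, and the log2 change was -0.21 (standard error 0.10, adjusted p from limma 0.320). Neither gene was called, and the median of the pair ranged from -0.38 to -0.14 over 17 other fits. In the fits without replicate 1, 2 or 4 of 3M this value rests on Hspd1 alone. The end at -0.14 is one of these, without replicate 1 of 3M. Of the 10 mitochondrial members with a probe, 3 had a higher and 7 a lower value, with a median log2 change of -0.02. With limma 0 were called, where 2.73% of all genes were. At an unadjusted p under 0.05, 0 were higher and 2 lower, where 9.44% and 7.65% of all genes were. Hspa9, the Hsp70 of the mitochondrial matrix, was at -0.10 (95% interval -0.40 to 0.20).

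The cytosolic Hsp70 and Hsp90 genes that neurons express at all times had narrow intervals around small values. Hspa8, the constitutive Hsp70, was at -0.07 (95% interval -0.25 to 0.10) on its brightest probe and at -0.07 and -0.05 on the other 2. Hsp90ab1, the constitutive Hsp90, was at -0.05 (95% interval -0.22 to 0.13), and its inducible counterpart Hsp90aa1 at -0.16 (95% interval -0.34 to 0.03). Hsp90aa1 read 17.09, 17.15, 17.15 and 16.97 in 3M and 16.86, 16.87, 17.03 and 16.98 in 29M. The groups overlapped. The 3 Hsp90 genes had lower values without a call (median -0.16, and -0.20 to -0.12 over 17 other fits).

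Hsph1, the inducible Hsp110, read 16.05, 16.04, 16.42 and 15.97 in 3M and 15.77, 16.07, 15.96 and 15.48 in 29M. The groups overlapped, with a log2 change of -0.30 (standard error 0.15, adjusted p from limma 0.338), and of -0.19 without replicate 4 of 29M. Its second probe read 15.13, 15.18, 15.30 and 14.96 in 3M and 14.80, 14.88, 14.81 and 14.29 in 29M. On that probe the groups did not overlap, with a log2 change of -0.45 (standard error 0.14, adjusted p from limma 0.155). Hspa4l, the third gene of the Hsp110 group, was at -0.28 (95% interval -0.59 to 0.02).

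**Figure D4:**
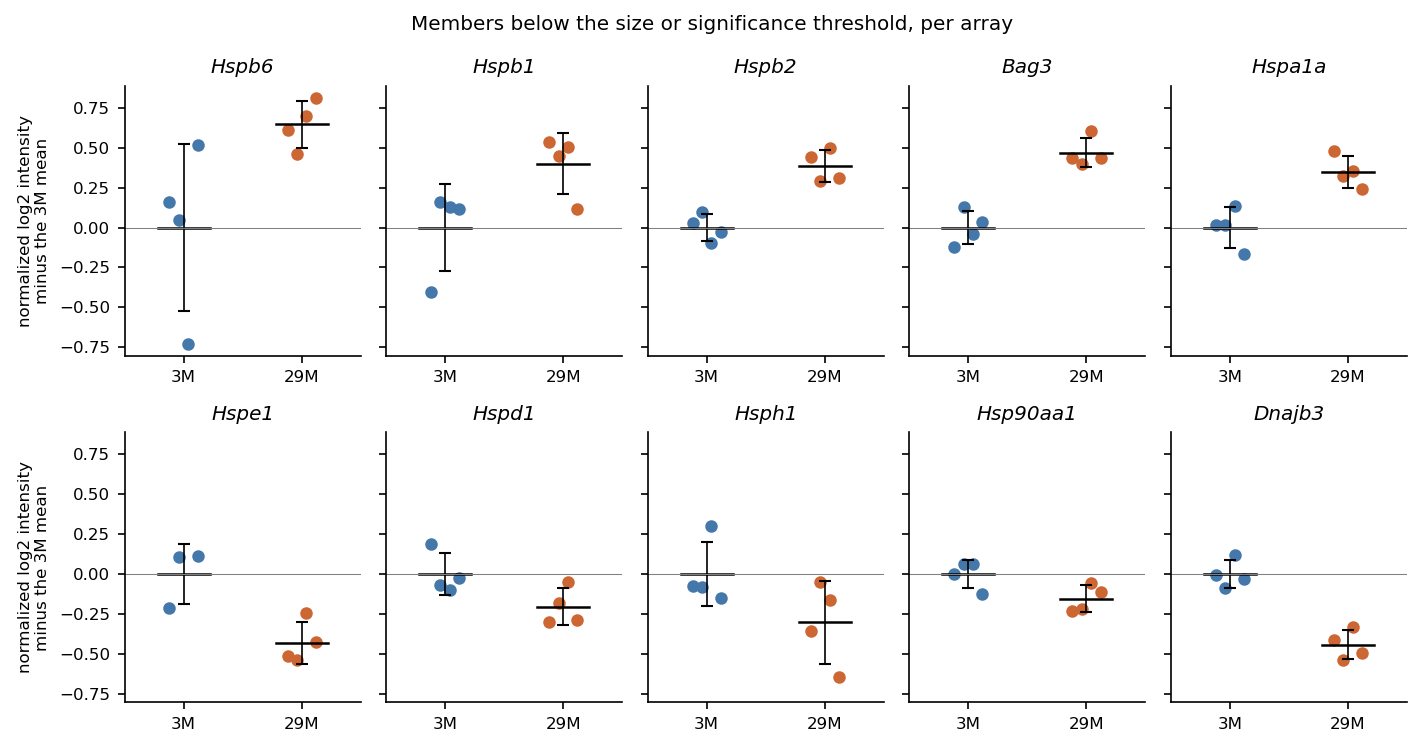
Normalized log2 intensity of 10 members without a call, each minus its own 3M mean (vertical axis), with 1 point per array, a line at the group mean and a bar of 1 SD (n = 4, and n = 3 for Hspe1 in 3M). All 29M points of Hspb2, Bag3 and Hspa1a lie above the 3M points and those of Hspe1 and Dnajb3 below, while the groups overlap for Hspb6, Hspb1, Hspd1, Hsph1 and Hsp90aa1.

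The endoplasmic reticulum has its own chaperones, induced through the unfolded protein response. Of 11 such members, 5 had a higher and 6 a lower value in 29M, with a median log2 change of -0.01. With limma 0 were called, where 2.73% of all genes were. At an unadjusted p under 0.05, 1 was higher and 0 lower, where 9.44% and 7.65% of all genes were. Hspa5, the Hsp70 of this compartment known as BiP, read 16.22, 16.34, 16.30 and 16.23 in 3M and 16.38, 16.29, 16.38 and 16.26 in 29M. The groups overlapped and the log2 change was 0.06 (95% interval -0.11 to 0.23). Hsp90b1, known as Grp94, read 16.61, 16.67, 16.47 and 16.68 in 3M and 16.20, 16.26, 16.82 and 16.25 in 29M. Replicate 3 of 29M was the highest of all 8 arrays, while the other 29M arrays were the lowest 3, and the log2 change was -0.23 (standard error 0.14, adjusted p from limma 0.455). Without that array it was -0.37 (limma adjusted p = 0.0936), still without a call.

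Dnajc3, which assists Hspa5 and is known as an inhibitor of eIF2 alpha kinases, read 11.18, 11.25, 10.97 and 11.23 in 3M and 11.64, 11.83, 11.35 and 11.28 in 29M. Its groups did not overlap but came close, with a log2 change of 0.37 (standard error 0.13, adjusted p from limma 0.205). Dnajb9, a J protein that regulates the sensor Ern1, was at 0.18 (95% interval -0.20 to 0.56), and at 0.02 without replicate 1 of 3M. The stress element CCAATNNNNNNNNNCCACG, searched on both strands, occurred in the promoters of Hspa5, Hsp90b1 and Dnajc3 and in those of 0.137% of all genes with a listed promoter. The 3 log2 changes were 0.06, -0.23 and 0.37, so the members that share this element had no common direction. The promoters of these 3 genes are shown for that contrast, with the element in capitals.
Hspa5 (chr2:34771840-34772139, plus strand): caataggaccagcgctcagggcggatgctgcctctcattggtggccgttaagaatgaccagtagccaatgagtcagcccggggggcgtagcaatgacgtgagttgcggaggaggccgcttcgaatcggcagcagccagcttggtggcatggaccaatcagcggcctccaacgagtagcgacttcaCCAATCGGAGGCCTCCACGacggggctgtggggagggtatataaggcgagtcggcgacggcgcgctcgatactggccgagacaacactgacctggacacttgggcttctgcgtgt
Hsp90b1 (chr10:86705395-86705694, minus strand): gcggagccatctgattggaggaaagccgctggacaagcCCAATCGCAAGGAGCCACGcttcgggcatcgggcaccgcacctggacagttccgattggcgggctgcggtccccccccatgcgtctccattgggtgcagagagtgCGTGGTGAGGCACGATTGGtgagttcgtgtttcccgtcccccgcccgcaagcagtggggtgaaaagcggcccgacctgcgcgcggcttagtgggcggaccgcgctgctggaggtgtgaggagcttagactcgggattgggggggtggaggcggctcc
Dnajc3 (chr14:118937682-118937981, plus strand): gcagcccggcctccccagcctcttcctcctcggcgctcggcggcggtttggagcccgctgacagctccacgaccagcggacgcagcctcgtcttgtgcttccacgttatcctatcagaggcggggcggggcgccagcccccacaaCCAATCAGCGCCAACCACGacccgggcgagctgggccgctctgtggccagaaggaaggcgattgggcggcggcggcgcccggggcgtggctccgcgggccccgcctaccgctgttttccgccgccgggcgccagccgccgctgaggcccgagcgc

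The J domain genes were the largest class, and their medians were 0.08 for class A, -0.04 for class B and 0.00 for class C on the log2 scale. The sign of the median of class B turned in 1 of 17 other fits (0.01 with the processed signal). None of the 44 was called with limma, where 2.73% of all genes were. At an unadjusted p under 0.05, 2 were higher and 3 lower, where 9.44% and 7.65% of all genes were. Dnajb3, a J protein best known from testis, read 10.01, 9.93, 10.14 and 9.99 in 3M and 9.61, 9.48, 9.68 and 9.52 in 29M. Every 29M array lay below every 3M array, and the log2 change was -0.44 (standard error 0.08, adjusted p from limma 0.0381), under the size threshold. It was -0.41, -0.45 and -0.46 within the 3 slides. Dnajb8, another J protein known from testis, also had groups that did not overlap, with a log2 change of -0.32 (95% interval -0.66 to 0.01).

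The main cytosolic partners of Hsp70 lay near 0. Dnajb1, the inducible Hsp40, was at -0.08 (95% interval -0.27 to 0.12), Dnaja1 at 0.12 (95% interval -0.12 to 0.35) and Dnajb2, a neuronal J protein that binds ubiquitin, at 0.03 (95% interval -0.14 to 0.20). Of the 4 members that act at synaptic vesicles and clathrin coats, 1 had a higher and 3 a lower value, with a median of -0.09. Dnajc5, the cysteine string protein of synaptic vesicles, read 17.53, 18.01, 17.91 and 17.49 in 3M and 17.37, 17.31, 17.40 and 17.45 in 29M on its brightest probe. The 3M arrays formed 2 pairs, the lower of which lay just above 29M, and the log2 change was -0.35 (standard error 0.13, adjusted p from limma 0.208). Its other probes, well above background on all arrays, gave 0.02 and 0.12, so the lower value was found at 1 of 3 probes. Dnajc6, the auxilin that uncoats clathrin vesicles, was at -0.10 (95% interval -0.29 to 0.09).

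How often probes of a gene differ in sign over the whole array was not counted, but several members had probes of opposite sign. Of 21 members with more than 1 probe, 8 did, and after Hspa4 the widest was Dnajc21, a J protein of ribosome biogenesis, at 0.40 and -0.18. On its brightest probe it read 10.27, 11.76, 11.46 and 11.29 in 3M and 11.75, 11.95, 11.02 and 11.66 in 29M. The groups overlapped, replicate 1 of 3M was far below all others, and without it the log2 change was 0.09. Dnajb6, which suppresses the aggregation of polyglutamine proteins, had 4 probes. They gave -0.19 and -0.12 for the 2 brighter ones and 0.27 and 0.30 for the others, with limma adjusted p-values from 0.416 to 0.568, so no probe was called.

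**Figure D5:**
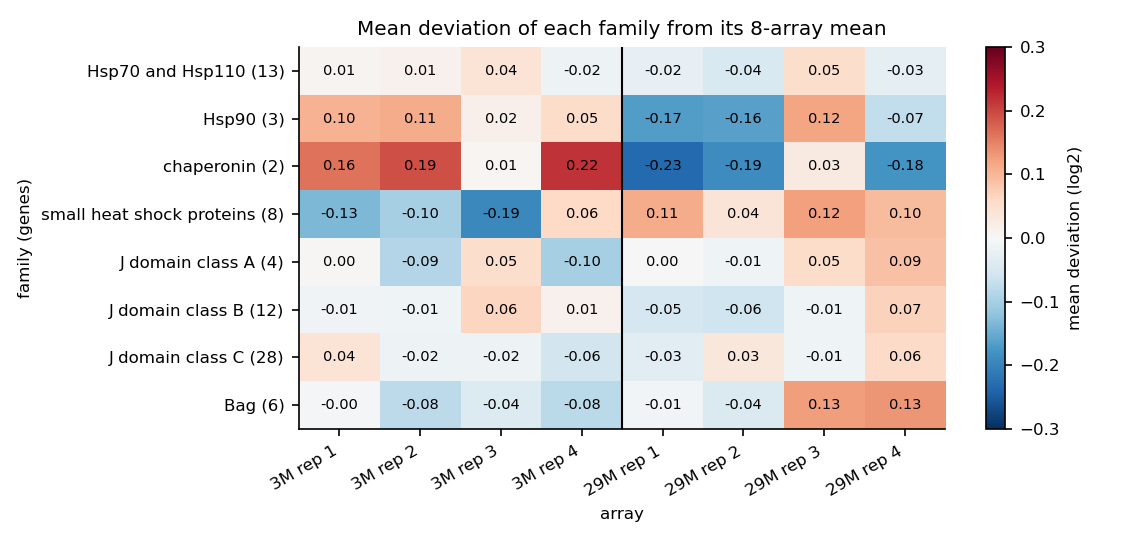
Mean log2 deviation of each family's genes from their 8-array means (colour and printed value), with families as rows (number of genes in brackets) and arrays as columns. The chaperonin value of replicate 3 of 3M rests on Hspd1 alone, small heat shock proteins lie above 0 on all 29M arrays and on replicate 4 of 3M, and Hsp90 and chaperonin lie below 0 on all 29M arrays other than replicate 3.

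Arrays of 1 age differed among themselves in these family means. The mean deviation of the Hsp90 genes was 0.10, 0.11, 0.02 and 0.05 in 3M and -0.17, -0.16, 0.12 and -0.07 in 29M, with replicate 3 of 29M the highest of all. That of the small heat shock proteins was -0.13, -0.10, -0.19 and 0.06 in 3M and 0.11, 0.04, 0.12 and 0.10 in 29M, where replicate 4 of 3M lay above replicate 2 of 29M. Within the 3 slides the median log2 change of all 76 genes was -0.01, 0.03 and -0.02. For 35 of the 76 genes the sign was the same on all 3 slides. The share over all genes was not computed and each slide held few arrays of an age, so this count describes no trait of the members.

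The other genes of protein folding, 79 genes in 5 lists that hold no member, gave a like picture. With limma 0 of them were called in either direction, where 2.73% of all genes were. At an unadjusted p under 0.05, 7 were higher and 2 lower, where 9.44% and 7.65% of all genes were. Their median log2 change was 0.00. Hsf1, the main heat shock factor, was at -0.07 (limma adjusted p = 0.859), Hsf2 at -0.32 (limma adjusted p = 0.0920) and Hsf5 at 0.56 (limma adjusted p = 0.103). The cytosolic co-chaperones (27 genes) had a median of -0.01, the chaperonin TRiC with prefoldin (15 genes) 0.05 with 12 higher values, the endoplasmic reticulum list (21 genes) 0.00, and the mitochondrial list (11 genes) -0.01. P4hb, the protein disulfide isomerase, had an adjusted p under 0.1 at a change under the size threshold (0.42, limma adjusted p = 0.0363), as did the co-chaperone Sgtb (-0.497, limma adjusted p = 0.0921). Grpel2, a nucleotide exchange factor of Hspa9, had log2 changes of 0.50 and -0.03 on 2 probes of similar brightness (limma adjusted p = 0.104 and 0.905).

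Among markers of other cell types, Gfap of astrocytes was the one gene called (log2 change 0.71, limma adjusted p = 0.0235), while the median of the 5 astrocyte markers was -0.06. Medians were 0.32 for 6 microglial, 0.18 for 5 oligodendrocyte and 0.05 for 8 neuronal markers. Those of tissue next to the hippocampus were 0.01 for choroid plexus, -0.13 for ependyma, 0.26 for meninges and -0.34 for red blood cells, with no gene called, and replicate 3 of 3M stood apart on the markers of choroid plexus and ependyma, as given beside Hspb6. Of 9 genes induced by neuronal activity 8 had lower values in 29M, with a median of -0.48, and 0 were called. Their summed levels on the log2 scale were 16.38 to 17.42 in 3M and 16.10 to 16.54 in 29M. The mean deviations were -0.44, 0.30, 0.85 and 0.26 in replicates 1 to 4 of 3M and -0.37, -0.03, -0.05 and -0.52 in 29M. Within the 3 slides the median log2 change of these genes was -0.05, -0.27 and -0.90, so its size varied widely. The part of these cells and of activity in the values of the heat shock genes was not tested.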

How the data were processed

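For each array the authors deposited scanner intensities on a linear scale, not normalized, made per the file headers with Agilent Feature Extraction 10.7.3.1. The analysis plan assumed the mean spot intensity, but the deposited scanner data held the median, which was used. A deposited series table held local background intensities (8 of 8 columns, 7 of them of another array) and was not used.

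Control and outlier spots were left out. Variance stabilising normalization, refitted in R 4.3.3 (trimming quantile 0.9, 7 iterations), gave generalized log2 values, on which changes of dim probes are understated. In limma 3.58.1 a linear model with age was fitted to the 39408 probes that had 3 or more usable arrays in each group, with eBayes and Benjamini-Hochberg adjustment over all of them. Calls needed both an adjusted p under 0.1 and a log2 change of 0.5 or more in either direction, and any called probe made its gene a call. Otherwise the probe with the highest mean stands for a gene. On simulated data for 29M against 3M (39429 probes, 200 changed), 100% were recovered and 6.98% of calls were false. Recovery by size, such as for a log2 change near the threshold of 0.5, was not tested. The number of arrays limits the precision.

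Probes were named through their accessions with RefSeq (GRCm38.p6), which gave 66.1% of probes a symbol. Of 94 matching symbols, 18 had no probe, 16 of them pseudogenes or related sequences. Named were members with a call, the 8 others with the largest change among those above background, and a set list of well-known members with Hsf1. Bag4, Bag6, Hspb3, Hspb7, Hspb9, Hspb11, Hspa4l, Dnajb8, Cryab, Hsf2, Hsf5, P4hb, Sgtb and Grpel2 were added after their values were seen. The member rule reads symbols only, but this gene group and the lists were picked with earlier results of these data known. Alternatives changed the background correction, input signal, scaling, outlier and dim-probe filters, variance prior, slide, replicate block, threshold and each array.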

Additional observations from a re-analysis of the deposited data

Results flagged for a closer look

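In 4 of 82 groups of 4 arrays examined (the named genes and probes, by age), 1 array lay far from the other 3, where chance alone gives about 1 in 20, or 4.1. The measure is the gap to the nearest array over the whole range. Hspb1 was low in replicate 1 of 3M, at 12.91 against 13.43 to 13.48 (ratio 0.913). Hspa9 was high in the same array, at 15.42 against 14.89 to 14.96 (ratio 0.876). Hsph1 was high in replicate 3 of 3M, at 16.42 against 15.97 to 16.05 (ratio 0.830). Hsp90b1 was high in replicate 3 of 29M, at 16.82 against 16.20 to 16.26 (ratio 0.910).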

How the results depend on the processing

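Both lower Hspa4 probes kept their call under all 17 other fits (log2 change -1.16 to -0.97 and -2.86 to -2.20), and 26 of 32 named values kept their sign. With 1 array left out the number of heat shock genes called higher ranged from 0 to 1 (Bag3 without replicate 2 of 3M), that called lower stayed at 1, and their median log2 change ranged from -0.03 to 0.02. The other folding genes called ranged from 0 to 2 higher and from 0 to 1 lower with 1 array left out. With bright probes only, 2 were called higher (Grpel2 and Hsf5), with slide as a random block 1 (Hsf5). Lower calls numbered 1 with normexp and quantile normalization (Sgtb) and 1 with scaling to the 75th percentile (Cryaa). Of values over 0.1, leaving out 1 array moved those of Hspb8 (to 0.05 without replicate 1 of 3M), Dnaja1 (to 0.04 without replicate 4 of 3M), Dnajb6 (to -0.10 without replicate 3 of 3M) and the brightest Hspa4 probe (to 0.09 without replicate 4 of 29M) by over 1.5 times, beside those given above. Signs turned for values near 0. Hspa9 was at 0.0047 with the processed signal normalized and between -0.16 and 0.029 with 1 array left out. Hsp90ab1 was at 0.0066 with normexp and quantile normalization, and Dnaja1 at -0.039 with the 75th percentile and -0.024 with the processed signal. With slide as a fixed block Bag5 was at -0.0012 and Hsf1 at 0.026. Leaving out 1 array gave ranges of -0.089 to 0.016 for Bag2, -0.054 to 0.071 for Bag5 and -0.13 to 0.053 for Hsf1. The causes were not tested. The brightest Hspe1 probe, with 3 usable 3M arrays, could not be fitted with replicate 1, 2 or 4 of 3M left out. Samples of the same number did not deviate together (r = -0.24, 0.21, -0.23 and 0.07), and values for unlike numbers ran from -0.32 to 0.40. No pairing by number was seen, but these correlations cannot exclude one, since slide and array quality also enter them. With the replicate block 0 genes were called higher and 1 lower, Hspa4 (-1.09, limma adjusted p = 0.0346, and -2.62, limma adjusted p = 0.0520), and the limma adjusted p of Bag3 was 0.146, of Dnajb3 0.120 and of Hspb2 0.198.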
